A study of Hipposideros armiger with 2 samples.

Results

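The genes described here encode the contractile apparatus of heart and skeletal muscle: 50 gene names, of 12783 distinct names in the data, chosen as sarcomere proteins, their calcium handling partners and cardiac hormones. The members were matched by name. All 50 names were present, and they covered 105 of the 55378 assembled genes. Values come from 2 RNA sequencing libraries whose tissue label is liver. The bats were wild-type Hipposideros armiger, the great Himalayan leaf-nosed bat, of the CW cave, with heavy metals exposure as their labelled treatment. The design text gives adult males for the study, caught in the wild, and does not say whether tissue was pooled. Both libraries belong to 1 group, so no comparison between exposed and unexposed animals was made, and the values below describe each library and how far the libraries differed. The study's second cave was not analysed here.

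The sarcomere is the repeating unit of striated muscle, in which myosin heavy chains and their light chains pull on actin filaments. Calcium released from the sarcoplasmic reticulum binds troponin C, and troponin T and troponin I pass that signal on to the filament. Most of these proteins exist as heart, slow skeletal and fast skeletal forms from separate genes, and within the heart the atria and ventricles use different light chains. Hepatocytes are not known for making them. In bulk RNA, fewer muscle cells and less RNA per muscle cell cannot be told apart.

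The libraries held 18741214 and 18778280 rounded counts in replicate 1 and replicate 2. The 50 members together held 0.174% of the replicate 1 counts and 0.168% of the replicate 2 counts, with Wilson 95% intervals of 0.172% to 0.176% and 0.166% to 0.170%. At 1 TPM (transcripts scaled to a fixed total, corrected for length) or more in both libraries were 45 of the 50 members, or 90.0%, against 93.2% of all names, so being measured at that level did not set them apart. At 10 TPM or more in both were 25 members, or 50.0%, against 41.6% of all names. The tissue label was checked against 10 hepatocyte markers, whose sum was 12360 TPM for replicate 1 but 367 TPM for replicate 2. The plasma proteins ALB (7990 and 176 TPM) and APOC3 (1091 and 44.6 TPM) and the urea cycle enzyme ASS1 (1003 and 33.1 TPM) were the highest of them. Surfactant and airway markers summed to 11940 and 19000 TPM, led by SCGB3A1 (8069 and 12898 TPM), SFTPC (2554 and 4047 TPM) and SFTPB (462 and 714 TPM). The hepatocyte list differed by far more between the libraries than any sarcomere class below, and the part of both lists in the values below was not tested.

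Heart, skeletal and shared sarcomere genes were all present in both libraries. For the 13 cardiac members the sum was 465 TPM in replicate 1 against 621 TPM in replicate 2 (543 ± 110.0, mean ± SD, n = 2 here and below). The 19 skeletal members summed to 446 and 406 TPM (426 ± 28.1), and the 18 members used by both muscles summed to 404 and 439 TPM (421 ± 24.7). The ratio of cardiac to skeletal TPM, which does not depend on scaling between libraries, was 1.04 in replicate 1 and 1.53 in replicate 2. By class, the 3 genes counted as slow skeletal stood lowest, at 9.61 and 18.0 TPM. The 16 counted as fast skeletal stood highest, at 437 and 389 TPM. The fast class also holds ACTA1, NEB and RYR1, which slow fibres make too. Genes that slow muscle shares with heart were counted elsewhere, with 181 and 190 TPM for the 6 named cardiac and slow skeletal. These sums thus do not measure slow against fast muscle. Atrial genes summed to 98.5 and 145 TPM and ventricular genes to 151 and 212 TPM. In counts the order was reversed, at 7579 and 7490 for atrial genes against 1256 and 1524 for ventricular ones. Of the atrial counts, MYH6 alone held 7328 and 7091. The heart chamber that makes MYH6 in this bat was not tested, so the atrial and ventricular sums do not measure atrium against ventricle. Smooth muscle markers, a separate contractile program of vessels and airways, summed to 1440 and 2097 TPM over 8 genes. Among these, DES (99.9 and 146 TPM) is also made in striated muscle.

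**Figure D1:**
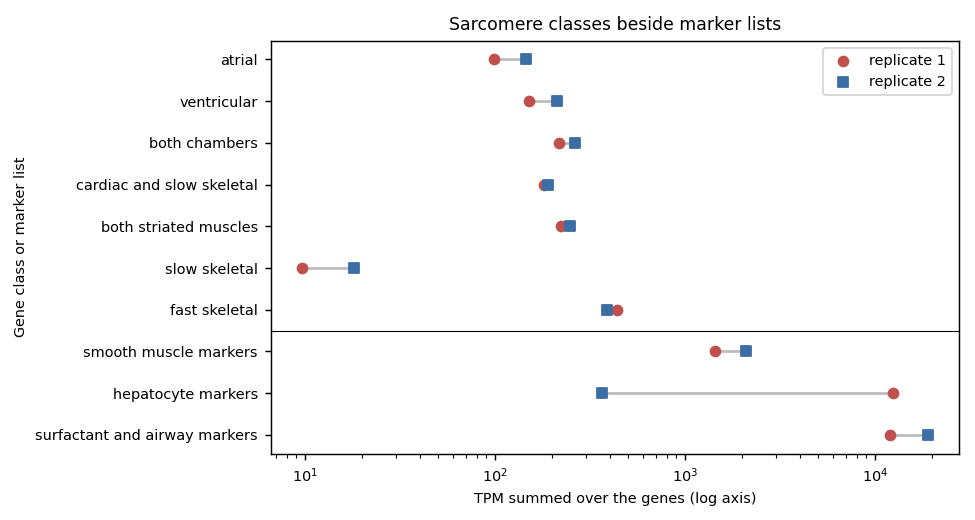
TPM summed over the genes of each class (log axis), with circles for replicate 1 and squares for replicate 2; the marker lists are below the line. The libraries lie much farther apart for the hepatocyte markers than for any sarcomere class, at 12360 and 367 TPM. The lowest class in both libraries, slow skeletal, holds 3 genes, and genes that slow muscle shares with heart are in other classes.

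Among the heart proteins of the thin filament, cardiac troponin T (TNNT2), which anchors the troponin complex on tropomyosin, had 93.3 TPM in replicate 1 against 96.8 TPM in replicate 2. It had the highest mean of the cardiac members and ranked 636 among 12684 names above 0. Cardiac troponin I (TNNI3), the inhibitory subunit, was at 37.3 and 57.1 TPM. Cardiac actin (ACTC1) was at 66.9 and 85.7 TPM. For ACTC1 and TNNI3 the higher TPM was in replicate 2, while the TNNT2 values lay close together. Part of the TNNT2 level comes from an assembled gene of 773 bases to which the deposited table gives 22.1 TPM for 66 counts and 7.62 TPM for 84 counts, so its TPM and counts run opposite ways. Troponin C of heart and slow muscle (TNNC1), the calcium sensor, was at 28.1 and 34.8 TPM.

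The ventricular light chains were more abundant than the atrial ones. MYL2, the ventricular regulatory light chain, was at 69.6 and 98.5 TPM, and its atrial counterpart MYL7 was at 20.1 and 31.8 TPM. The ventricular essential light chain MYL3 was at 32.5 and 46.6 TPM, and the atrial one, MYL4, at 11.1 and 22.8 TPM. The ventricular form thus exceeded the atrial form 3.47-fold and 3.10-fold for the regulatory chain, and 2.92-fold and 2.05-fold for the essential chain. MYL2 and MYL3 are also made in slow skeletal muscle, so they are not particular to ventricle. The atrial hormone NPPA, which promotes salt excretion, was at 3.57 and 9.04 TPM, and NPPB, the related peptide of strained ventricle, was at 2.39 and 1.48 TPM from 11 and 6 counts.

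Myosin heavy chains were resolved poorly. MYH6, the alpha heavy chain, was counted as atrial, and the heart chamber that makes it in this bat was not tested. It was 1 assembled gene of 6079 bases with 16 transcripts, at 63.8 and 81.7 TPM. It held 95.7% and 95.6% of the counts of the 5 heavy chain members, 7328 and 7091 counts. The beta heavy chain MYH7, counted as ventricular and also made in slow muscle, appeared as 5 assembled genes of at most 845 bases. It was at 48.4 and 66.9 TPM from only 186 and 193 counts. The fast chains MYH1 (4.31 and 6.95 TPM), MYH2 (1.66 and 0.62 TPM) and MYH4 (0.84 and 0.29 TPM) were low. These genes are close copies of each other, and which of them gave the reads counted under the MYH6 name was not tested. The fast regulatory light chain MYLPF stood 11.2-fold and 11.7-fold above the summed fast heavy chains. Without all 5 heavy chains, the ratio of cardiac to skeletal TPM was 0.80 in replicate 1 and 1.18 in replicate 2.

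**Figure D2:**
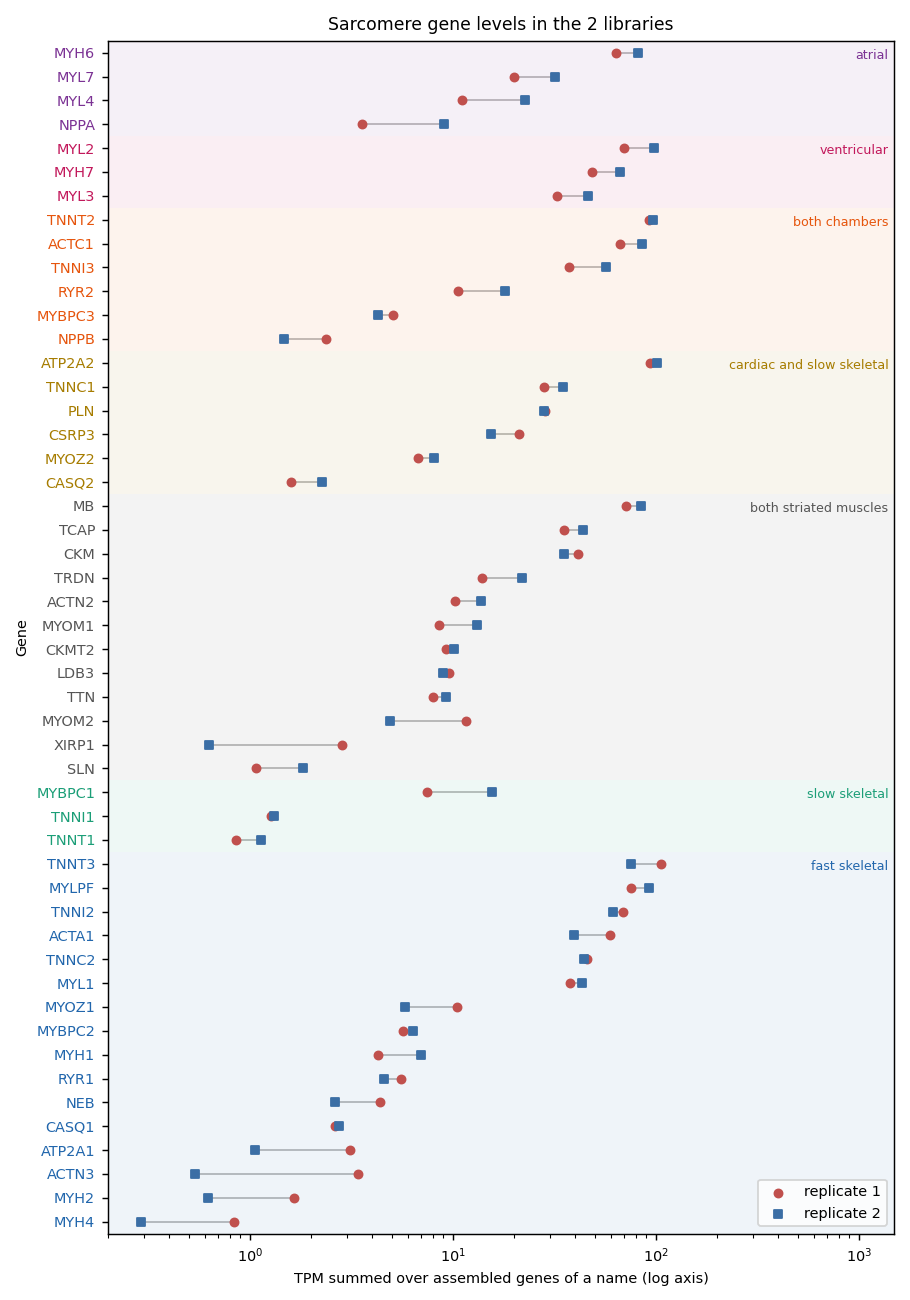
TPM of each of the 50 members (log axis) in replicate 1 (circles) and replicate 2 (squares), grouped by the class of each gene. Troponins and light chains of heart and fast muscle, and the cardiac and skeletal actins, lie near the top of the range. The slow troponins TNNT1 and TNNI1 lie near 1 TPM.

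Fast skeletal genes reached levels in the range of the heart genes. Fast troponin T (TNNT3) had 106 TPM in replicate 1 against 75.2 TPM in replicate 2, fast troponin I (TNNI2) at 68.7 and 61.9 TPM, and fast troponin C (TNNC2) at 45.7 and 44.5 TPM. All of these thin filament regulators were lower in replicate 2 in TPM, by margins from small to moderate. In TPM the light chains MYLPF and MYL1 were higher there, unlike in TMM-scaled counts, with MYLPF at 76.0 and 92.2 TPM and MYL1 at 37.9 and 43.4 TPM. Skeletal actin (ACTA1), counted in this class though slow fibres make it too, was at 59.7 and 39.5 TPM. The Z-disc protein myozenin 1 (MYOZ1), typical of fast fibres, was at 10.5 and 5.82 TPM. The remaining genes of the class were low. MYBPC2, a thick filament protein, was at 5.71 and 6.38 TPM. RYR1, the calcium release channel of fast and slow skeletal muscle, was at 5.59 and 4.60 TPM. NEB, CASQ1, ATP2A1, ACTN3, MYH2 and MYH4 had means of 0.57 to 3.52 TPM, the highest being that of nebulin (NEB), the ruler of thin filament length.

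Slow skeletal troponins were low. TNNT1 had 8 and 4 counts (0.86 and 1.14 TPM), and TNNI1 had 35 and 19 counts (1.27 and 1.32 TPM). Fast troponins T and I together stood 82.2-fold above these slow forms in replicate 1 and 55.8-fold in replicate 2. MYBPC1, named the slow form of myosin-binding protein C, was higher, at 7.48 and 15.5 TPM. Its TPM in replicate 2 included 6.45 TPM from an assembled gene of 305 bases with 12 counts there and 0 in replicate 1, and its total counts were 302 and 311. MYBPC1 is also made in fast fibres, so it does not mark slow muscle alone.

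Calcium handling genes were led by ATP2A2, the calcium pump of heart and slow muscle, whose other splice form is made in most cells. It was at 94.3 and 101 TPM, the highest mean of all 50 members, over 10 assembled genes. Its inhibitor phospholamban (PLN) was at 28.7 and 28.3 TPM. Sarcolipin (SLN), the small pump inhibitor of atrium and skeletal muscle, was at 1.08 and 1.83 TPM, far under PLN. Triadin (TRDN), which links the release channel to calsequestrin, was at 13.9 and 22.0 TPM. The cardiac release channel RYR2 was at 10.7 and 18.1 TPM, but from 18 and 27 counts on 3 assembled genes of at most 287 bases. Cardiac calsequestrin (CASQ2), the calcium store, was at 1.59 and 2.28 TPM from 84 and 107 counts, and its skeletal form CASQ1 at 2.63 and 2.75 TPM from 52 and 82 counts.

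Genes used by both striated muscles covered the oxygen store, energy buffer and scaffold. Myoglobin (MB) was the most abundant, at 71.5 and 84.9 TPM. Muscle creatine kinase (CKM) was at 41.4 and 35.2 TPM and its mitochondrial partner CKMT2 at 9.24 and 10.2 TPM. Of the Z-disc proteins, telethonin (TCAP) was at 35.2 and 43.7 TPM, CSRP3 at 21.2 and 15.5 TPM, ACTN2 at 10.3 and 13.8 TPM, LDB3 at 9.62 and 8.96 TPM and MYOZ2 at 6.75 and 8.10 TPM. Titin (TTN), the giant spring of the sarcomere, was at 7.96 and 9.30 TPM on assembled genes of 7503 and 350 bases. The M-band proteins were MYOM1 at 8.52 and 13.2 TPM and MYOM2 at 11.7 and 4.93 TPM. The MYOM2 difference arose in a fragment of 205 bases with 6 counts and 1 count, to which 8.95 and 1.67 TPM are given; its total counts were 303 and 318. MYBPC3, the cardiac myosin-binding protein C, was at 5.07 and 4.28 TPM from 297 and 379 counts. XIRP1, a repair-associated scaffold of the intercalated disc and tendon junction, was at 2.86 and 0.63 TPM.

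The balance between heart and skeletal forms was then set out within each protein family, as the share of the heart form in the sum of heart and skeletal forms. This share needs no scaling between libraries, and the 11 families were chosen with the values known. In 4 of them (troponin C, the calcium pump, calsequestrin and myozenin) the form counted as heart is also that of slow skeletal muscle, as are MYL2 and MYL3 of the light chains. In TPM the heart share was higher in replicate 2 in 10 of 11 families, by a median of 8.0 percentage points over all 11. Calsequestrin, at 37.7% and 45.3%, is among the 10 only through a CASQ1 fragment of 224 bases. That fragment has 1.11 TPM from 1 count in replicate 1 and 0 in replicate 2. Without it CASQ1 was at 1.52 and 2.75 TPM beside 1.59 and 2.28 TPM for CASQ2, so the direction reverses. Troponin T was 46.5% heart form in replicate 1 and 55.9% in replicate 2, and troponin I 34.8% and 47.4%. Both troponins moved the same way, and troponin C had a smaller difference, at 38.0% and 43.9%. The regulatory light chains were 54.1% and 58.6% heart form, the essential light chains 53.5% and 61.5%, and sarcomeric actin 52.8% and 68.4%. Myozenin had the widest difference in TPM, at 39.1% and 58.2%. The calcium pump was almost all ATP2A2, at 96.8% and 99.0%. That gene also has a splice form made in most cells, which was not told apart here, so this share need not reflect muscle alone. Myosin-binding protein C ran the other way in TPM, at 27.8% and 16.3%, which includes the 305-base MYBPC1 fragment and a MYBPC3 fragment of 228 bases with 2.11 TPM from 2 counts in replicate 1 and 0 in replicate 2.

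Shares of counts gave 10 of 11 families as well, with a different exception. Myosin-binding protein C had a higher heart share in replicate 2 by counts, at 31.5% (Wilson 95% interval 28.6% to 34.5%) and 37.9% (35.0% to 41.0%). Calsequestrin was the exception by counts, at 61.8% (53.4% to 69.5%) and 56.6% (49.5% to 63.5%), with overlapping intervals. The intervals of the libraries did not overlap in 6 families: troponin T, troponin I, the essential light chains, actin, myosin-binding protein C and myozenin. The same share was not computed for other gene families, so this count has no background and is not a result about these families. For troponin T they were 37.9% to 41.4% in replicate 1 and 52.1% to 56.0% in replicate 2. The ryanodine receptor shows how far fragments move a level: RYR2 held 65.6% and 79.7% of the family by TPM, but 9.84% and 19.7% by counts. These intervals cover counting error only, and the spread between animals cannot be estimated from 1 library against 1.

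**Figure D3:**
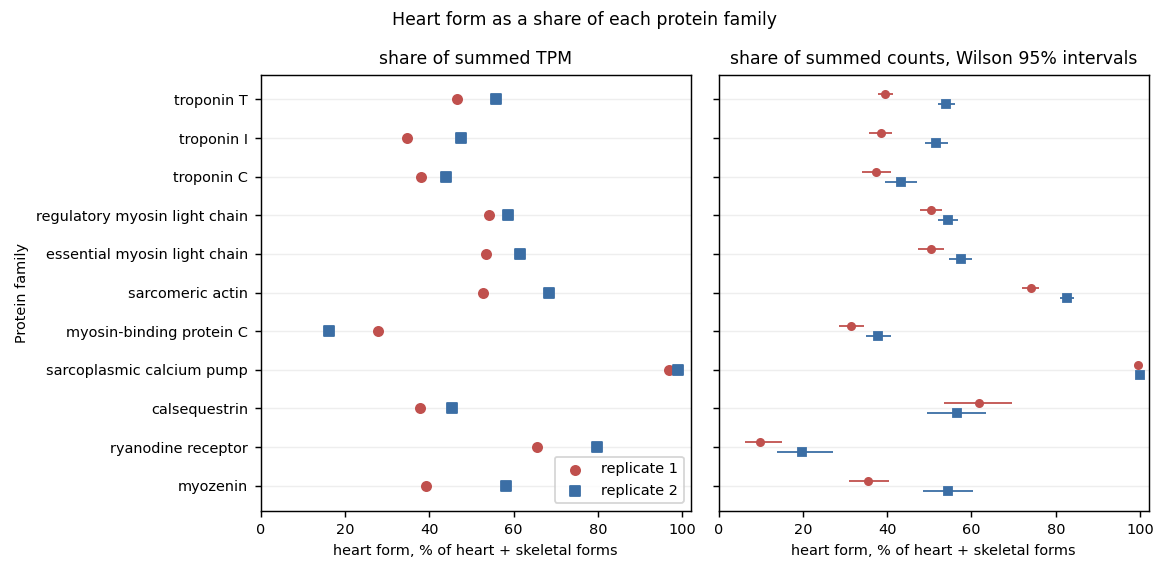
Heart form as a percentage of heart plus skeletal forms in 11 protein families, by TPM (left) and by counts with Wilson 95% intervals (right); circles are replicate 1 and squares replicate 2. The squares lie to the right in 10 of 11 families on each side, the exceptions being myosin-binding protein C by TPM and calsequestrin by counts. The direction of calsequestrin by TPM rests on a CASQ1 fragment with 1 count in replicate 1.

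The libraries were compared gene by gene on TMM-scaled counts (a scaling that assumes most genes do not differ), as log2(CPM + 1), where CPM is the count scaled to a fixed total, replicate 1 over replicate 2, less the median of all names. A mean of 1 CPM was required, which 43 members passed. Over 2-fold higher in replicate 1 were 3 of the 43 members, against 5.16% of all 11289 names tested. Over 2-fold higher in replicate 2 were 0 members, against 0.0266% of names, and in either direction the background was 5.19%. The members past 2-fold were XIRP1 (145 and 28 counts, log2 ratio 2.0), MYOZ1 (254 and 125 counts, 1.16) and NEB (352 and 185 counts, 1.11). That share is near the background, so the members were not set apart by large differences. The median log2 ratio over the 43 members was 0.19, beside 0 for all names by construction. Library size scaling moved the median of all names to -0.24, and under it XIRP1 alone stayed past 2-fold.

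Of 14 skeletal members that passed the filter, 13 lay above the median of all names, with a median log2 ratio of 0.51. Of 12 cardiac members, 8 lay below it, with a median of -0.07, and of 17 shared members 15 lay above it, with a median of 0.18. Under library size scaling, 10 of 14 skeletal, 1 of 12 cardiac and 7 of 17 shared members had a higher value in replicate 1. There the median of all names, -0.24, was not removed. The medians were 0.26 for skeletal, -0.31 for cardiac and -0.06 for shared members. The skeletal and shared medians thus still lay above that of all names, and the cardiac median below it. At a mean of at least 10 CPM, 4 cardiac members lay above and 4 below the median of all names, with a median of 0.04, so the cardiac direction depends on the filter. With only the highest assembled gene of each name, 11 skeletal members lay above the median of all names and 3 below, with a median of 0.52. In that setting MYBPC1 (-0.081) and MYBPC2 (-0.025) moved below it. Counting intervals of 95%, computed without the added CPM, lay wholly above 0 for 11 of 14 skeletal, 2 of 12 cardiac and 8 of 17 shared members. Over all names the background is 20.1% above 0 and 15.2% below 0. Below 0 lay 0 skeletal members, MYL4 and NPPA among the cardiac ones, and TRDN among the shared ones.

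After MYOZ1 (counting interval 0.97 to 1.61) and NEB (0.93 to 1.45), the skeletal members in order of their log2 ratio were TNNT3, ACTA1, RYR1, TNNI1, TNNI2 and TNNC2. TNNT3 had 1849 and 1153 counts and a log2 ratio of 0.93 (0.84 to 1.05), and ACTA1 had 485 and 313 counts and 0.85 (0.69 to 1.10). Both were higher in replicate 1, in TPM as well. RYR1 was at 0.74 (0.49 to 1.21), TNNI1 at 0.66 (0.30 to 2.03, from 35 and 19 counts), TNNI2 at 0.57 (0.43 to 0.74) and TNNC2 at 0.46 (0.28 to 0.68). The light chains MYL1, at 0.27 (0.10 to 0.45), and MYLPF, at 0.16 (0.01 to 0.31), were higher in replicate 1 on this scale but higher in replicate 2 in TPM. In the main setting CASQ1 alone among the tested skeletal members lay below 0, at -0.31 (-0.93 to 0.12). Among cardiac members, NPPA was lower in replicate 1, with 39 and 88 counts and a log2 ratio of -0.69, and MYL4 had 60 and 113 counts and -0.53. MYH6 was the cardiac gene most to the other side on this scale, at 0.31 (0.26 to 0.36). But MYH6 was at 0.05 under library size scaling, where the median of all names was -0.24, and its TPM was higher in replicate 2. TNNT2 (0.10), MYL2 (-0.05) and MYL3 (-0.05) lay within the middle of all names, whose quartiles were -0.13 and 0.17.

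**Figure D4:**
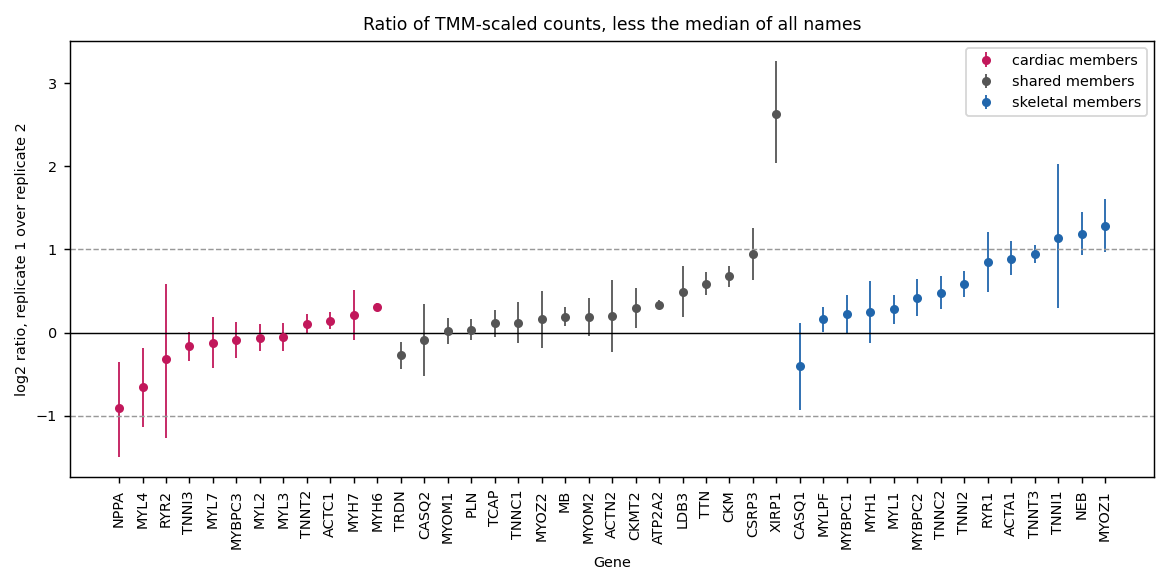
Log2 ratio of TMM-scaled counts, replicate 1 over replicate 2, without an added count and less the median of all names, for the 43 members that passed the filter; bars are 95% counting intervals and dashed lines mark 2-fold. Skeletal members (right) mostly lie above 0 and cardiac members (left) spread around 0, with XIRP1 farthest out.

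Other muscle genes, from lists of related function, gave further context. Of 22 other filament and Z-disc genes, 18 were matched by name, among them TMOD1, a cap of thin filaments, at 28.2 and 40.2 TPM, and MYL6B at 41.6 and 24.7 TPM. Of 15 tested, 2 were over 2-fold higher in replicate 1 (5.16% of all names) and 0 over 2-fold higher in replicate 2 (0.0266% of all names). These were ANKRD1, a stretch-responsive protein (468 and 109 counts, log2 ratio 2.17), and MYOT (165 and 86 counts, 1.03), both named after their values were seen. Genes of muscle protein turnover and folding were led by HSPB7 (33.1 and 42.5 TPM), SMYD1 (7.81 and 24.1 TPM, from 10 and 20 counts) and FBXO32 (8.88 and 5.13 TPM). Their median log2 ratio was 0.60 over 7 tested, and 2 were over 2-fold higher in replicate 1, against the same 5.16% of all names. These were TRIM63, a ubiquitin ligase of muscle wasting (122 and 29 counts, 1.75), and KLHL41 (153 and 41 counts, 1.73), named after their values were seen. Nearly all names past 2-fold were higher in replicate 1, so that direction is not particular to these lists.

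Calcium release and T-tubule genes had a median log2 ratio of 0.00 over 7 tested of 12, with HRC at 22.1 and 32.6 TPM, BIN1 at 12.1 and 16.0 TPM and CACNA1C at 5.74 and 10.8 TPM. Muscle metabolism genes had a median of 0.40 over 8 tested of 9. They were led by COX7A1, the heart and skeletal muscle form of a cytochrome oxidase subunit, at 476 and 214 TPM (1360 and 547 counts, log2 ratio 1.54), with COX6A2 at 49.2 and 30.7 TPM and FABP3 at 34.0 and 32.4 TPM. COX7A1 alone of that list was over 2-fold apart, against 5.19% of all names in either direction. Smooth muscle markers had a median of -0.08 over 8 tested, with the smooth actins ACTG2 at 590.1 and 931 TPM and ACTA2 at 235 and 323 TPM, and TAGLN at 358 and 488 TPM. That smooth muscle median lay within the quartiles of all names, -0.13 and 0.17, whereas the skeletal members had a median of 0.51. The difference between the lists was not tested.

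Regulators of muscle fate were few and low. Of 9 heart transcription factors, 5 were matched by name, led by TBX5 at 5.40 and 11.1 TPM, a factor of heart and also of lung mesenchyme. MEF2C had 2 and 5 counts and MYOCD 4 and 3 counts. Of 3 tested, GATA4 (61 and 2 counts) and HAND2 (109 and 9 counts), named after their values were seen, were over 2-fold higher in replicate 1. Of all names, 5.16% were. Both genes are also known from non-parenchymal liver cells. Of 8 skeletal myogenic factors, 2 were matched, among them MYF6, at 11 counts in replicate 1 and 0 in replicate 2. Neuromuscular junction genes (2 of 6 matched, CHRNB1 at 3.19 and 4.71 TPM and CHRNE at 2.11 and 5.17 TPM) and heart conduction genes (2 of 6, GJA5 at 2.67 and 4.09 TPM and POPDC2 at 2.51 and 2.81 TPM) were low. Names of these lists that were not matched are not analysed here.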

How the data were processed

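Per the labels' protocols, poly(A) RNA was sequenced from 2 libraries, 1 group with replicate numbers from the titles. The authors deposited, per the file headers, estimated counts for a Trinity assembly, and a second column read as TPM from its sums of 996837 and 996239, since its header gives no unit; cutadapt 1.9 and, for replicate 1, the mm10 build stand in the submitters' processing notes, and for the quantifier: not given in the sources used here. Gene names are the best protein matches in the deposited tables, so close copies and their fragments are uncertain. TPM and rounded counts were summed over rows of a name. TMM factors from edgeR 4.0.16 were 0.9096 and 1.099, and DESeq2 1.42.0 size factors were an alternative (R 4.3.3; Python 3.11.15, pandas 2.3.3, scipy 1.17.1). Ratios used log2(CPM + 1) at a mean of at least 1 CPM; no p-value was computed with 1 library against 1. The ratio script was checked on simulated counts. A floor of 3 counts is about 0.42 and 0.47 TPM at the median length of 421 bases. Floors and intervals cover counting error only. Values in both libraries are given for each member with a mean of 5 TPM or more, and the 3 highest genes of each other list are named, apart from a few left unreported. Members, lists, classes and families were chosen with earlier results of these data known. No sequence file was used.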

Additional observations from a re-analysis of the deposited data

How the results depend on the processing

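The ratio of cardiac to skeletal TPM (1.28) stayed within its spread between libraries under the other ways of forming levels, except with CPM in place of TPM (2.23), which weight long transcripts. With CPM the cardiac, skeletal and shared sums were 671, 307 and 729; TPM rescaled without the 10 highest assembled genes gave 735, 578 and 571. Rescaling raises all remaining genes by the same factor within a library. MYH6 alone held 7328 of the 12247 cardiac counts in replicate 1 and 7091 of 12938 in replicate 2. Its part in the CPM ratio was not tested. With only the highest assembled gene of each name the shared sum was 331, and without ATP2A2 it was 324; without the myosin heavy chains the cardiac sum was 412. TPM recomputed from counts and listed length gave 485 for the skeletal and 546 for the shared members. Leaving out each replicate in turn gave 465 to 621 TPM for cardiac, 406 to 446 for skeletal and 404 to 439 for shared members, a ratio of 1.04 to 1.53, and 46 to 48 members at 1 TPM or more. The median log2 ratio of members (0.19) was -0.049 under library size scaling, where that of all names was -0.24. That scaling left 1 member over 2-fold apart in place of 3. In the main setting the median was -0.07 for cardiac and 0.51 for skeletal members alone. The recomputed TPM, the removal of ATP2A2 and of heavy chains, and the split by muscle were chosen after the data were seen. No paired analysis was possible because the libraries form a single group. Depth limits NPPB, TNNT1, MYH2, MYH4, ACTN3, ATP2A1 and SLN, which did not pass the filter of 1 CPM.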
